A study of Arabidopsis thaliana with 6 samples.

Results

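The fasciclin-like arabinogalactan proteins (FLAs) of Arabidopsis thaliana are cell surface glycoproteins of the plasma membrane and wall, and 10 of their genes are described here in the tip of the primary root: FLA1 (AT5G55730), FLA2 (AT4G12730), FLA6 (AT2G20520), FLA7 (AT2G04780), FLA8 (AT2G45470), FLA9 (AT1G03870), FLA10 (AT3G60900), FLA11 (AT5G03170), FLA12 (AT5G60490) and FLA13 (AT5G44130). They were taken by locus, and all 10 were among the 37336 gene identifiers of the count tables. The hsl2 mutant had 3 libraries and the Col-0 wild type 3, with Col-0 given as the accession of both, and the series asks how the mutation acts on the shedding of root cap cells. Seedlings were harvested 7 days after germination for the last 0.5 mm of the primary root, having been grown on vertical agar without sucrose in 16 h of light and 8 h of dark. HSL2 encodes a receptor kinase of the HAESA family. The labels give no allele. They also do not say whether replicates were independent sets of plants, and p-values reflect only the scatter among the 3 samples of a genotype. That scatter is moderated over all genes tested, and part of it may be technical.

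An FLA carries fasciclin domains, a fold that serves adhesion in animals and microbes, beside stretches in which proline is hydroxylated and then decorated with arabinogalactan chains. Many FLAs are held at the outer face of the plasma membrane by a glycosylphosphatidylinositol (GPI) anchor. In roots the family is known through FLA4, also called SOS5, whose loss makes root cells swell under salt and which acts with the receptor kinases FEI1 and FEI2 in cellulose synthesis. In stems FLA11 and FLA12 are known from cells that lay down secondary walls.

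The members fall into a longer and a shorter class of protein. FLA1, FLA2, FLA8 and FLA10, which carry a pair of fasciclin domains, encode 403 to 424 residues. FLA6, FLA7, FLA9, FLA11, FLA12 and FLA13, with a single domain, encode 246 to 254 residues, as translated from the coding sequences of the TAIR10.1 annotation of RefSeq. Pairs of Ala-Pro, Pro-Ala, Ser-Pro, Thr-Pro or Val-Pro, the kind of motif in which arabinogalactan is attached, numbered from 9 in FLA2 and FLA11 to 32 in FLA10 and 31 in FLA8. The closest relatives were FLA8 and FLA10, with 85.7% identical residues over 414 aligned positions. FLA9 and FLA13 followed with 79.5%, FLA6 and FLA9 with 57.3%, FLA11 and FLA12 with 56.4%, FLA6 and FLA13 with 55.6%, and FLA1 and FLA2 with 51.6%. At the RNA level even these relatives were distinct: FLA8 and FLA10 shared 4 stretches of 50 bases, or 0.223% of those in the FLA8 transcript. FLA11 shared 7, or 0.815%, with a gene that overlaps it on the opposite strand, AT5G03160. The strand setting of the counting is not given in the sources used here, so a few of the FLA11 reads could belong to that gene. The other 7 members shared none with a transcript of another locus.

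The libraries held 15051468 to 20468890 counts, of which the 10 members took 0.0890% to 0.106% in hsl2 and 0.0825% to 0.0921% in wild type. The tip was present as labelled: the root cap markers SMB, BRN1, BRN2, FEZ and RCPG summed to 64.9, 81.5 and 72.1 CPM (counts scaled to library size with TMM factors) in hsl2 1, 2 and 3, against 122.0, 141.0 and 85.9 CPM in wild type 1, 2 and 3. All 5 had log2 fold changes of hsl2 over wild type below 0, from -0.22 for SMB to -1.70 for RCPG. The libraries of SMB, BRN1 and FEZ overlapped between genotypes, and those of BRN2 and RCPG did not. RCPG averaged 11.1 CPM in hsl2 and 36.0 CPM in wild type (adjusted p = 0.000116 with DESeq2 and 0.138 with edgeR). Of the stem cell markers PLT1 and PLT2 were detected in all libraries and WOX5 stayed below 1 CPM. Libraries stood apart within each genotype. The 4 green tissue markers summed to 63.4 CPM in hsl2 1 and to 12.5 and 12.03 CPM in hsl2 2 and 3, against 4.91, 5.84 and 11.6 CPM in wild type 1, 2 and 3. The 5 root hair markers summed to 19.2, 35.6 and 38.2 CPM in hsl2, against 5.85, 8.42 and 29.5 CPM in wild type, so that wild type 3 lay among the hsl2 libraries. In bulk tissue fewer cells of a type and less RNA per cell cannot be told apart. HSL2 itself was at 7.61, 9.75 and 9.81 CPM in hsl2, against 6.98, 8.61 and 7.22 CPM in wild type, which does not check the genotype.

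Set per length of exon, wild type means of the members spanned more than 3 orders of magnitude. There FLA9 exceeded FLA6, the lowest, by 1320 times from the means. The ratio was 3810, 1760 and 742 in wild type 1, 2 and 3, and it rests on 1, 2 and 5 FLA6 counts. In hsl2 the lowest mean was that of FLA13, which FLA9 exceeded by 656 times. FLA9 was the most abundant of all 21 FLA genes in both genotypes, at 256.9 ± 34.6 CPM per kb in hsl2 and 207.5 ± 19.6 CPM per kb in wild type (SD, n = 3 each), above 97.4% of the genes tested on the wild type scale. FLA2 came next, at 151.4 ± 13.2 CPM per kb in hsl2 and 122.0 ± 8.69 in wild type, and FLA7 followed at 129.3 ± 16.1 CPM per kb in hsl2 and 102.0 ± 10.9 in wild type (SD, n = 3 each). Together these 3 genes gave 88.3%, 81.3% and 79.2% of the summed level of the 10 members in hsl2 1, 2 and 3, against 76.6%, 77.9% and 80.1% in wild type 1, 2 and 3.

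A middle tier was formed by FLA8, at 53.1 ± 18.7 CPM per kb in hsl2 and 56.1 ± 1.62 in wild type, and FLA1, at 37.7 ± 9.59 in hsl2 and 39.96 ± 3.25 CPM per kb in wild type (SD, n = 3). FLA10 stood at 13.6 ± 3.03 CPM per kb in hsl2 and 18.7 ± 4.08 in wild type. These levels exceed the wild type median of the tested genes, 10.3 CPM per kb. FLA11 and FLA12 lay far below it, FLA11 at 3.70 ± 0.952 CPM per kb in hsl2 and 3.39 ± 0.796 in wild type, and FLA12 at 2.21 ± 0.528 in hsl2 and 1.41 ± 0.239 in wild type (SD, n = 3 each). FLA13 and FLA6 were at the edge of detection, with 3 to 14 and 1 to 23 counts per library over the 6 libraries. In wild type every member's libraries were separate from those of the next member down the order, from FLA9 to FLA13; FLA13 and FLA6 overlapped. With the longest transcript in place of all annotated exons the order of the 10 wild type means was identical, but FLA2 and FLA7 were then level: FLA7 was at 154.4 CPM per kb in hsl2 and 121.7 in wild type, against 151.4 in hsl2 and 122.0 in wild type for FLA2. Their order in hsl2 thus turned, and their wild type libraries overlapped.

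**Figure D1:**
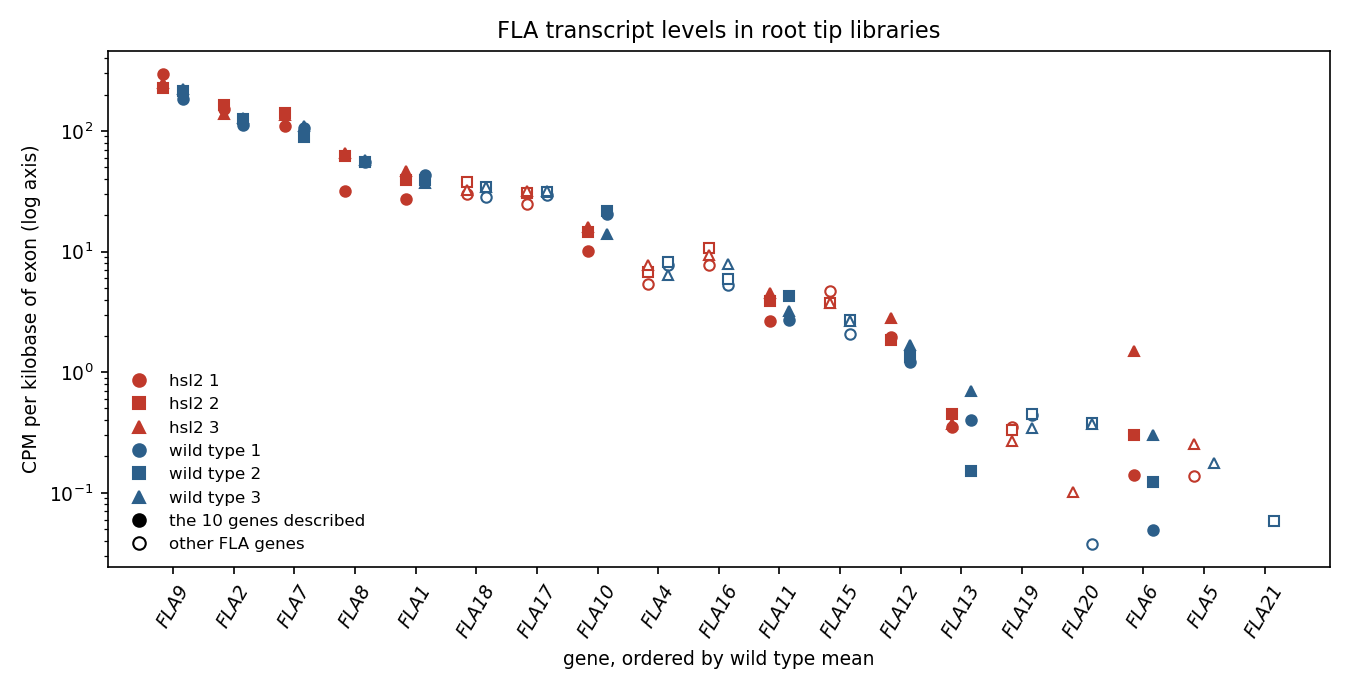
CPM per kilobase of exon (log axis) of the FLA genes in the 3 hsl2 libraries (red, left) and the 3 wild type libraries (blue, right), ordered by the wild type mean; values of 0 cannot be drawn, which leaves out FLA3 and FLA14. FLA9, FLA2 and FLA7 lead the family in both genotypes, FLA13 and FLA6 lie below 2 CPM per kb, and in hsl2 1 (circle) FLA8 and FLA1 lie below every other library.

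Relatives in sequence could lie far apart in level. FLA9 was 847, 502 and 663 times as abundant per kb as FLA13 in hsl2 1, 2 and 3, against 462, 1420 and 322 times in wild type 1, 2 and 3, although their proteins share 79.5% of residues. These ratios rest on the 3 to 14 FLA13 counts per library and overlap between the genotypes. FLA8 exceeded its relative FLA10 by 3.12, 4.25 and 4.12 times in hsl2 1, 2 and 3, against 2.72, 2.53 and 4.12 times in wild type 1, 2 and 3. The ratio in wild type 3 thus lay among those of hsl2 2 and 3, so the genotypes overlapped. FLA11 exceeded FLA12 by 1.35 to 2.11 times in hsl2 and 1.91 to 3.17 times in wild type, per kb.

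The comparison of hsl2 with wild type tested 8 of the 10 members, since FLA6 and FLA13 fell below the filter on low counts. None passed an adjusted p of 0.05 with edgeR's quasi-likelihood test, and the background was 0%, 0 of 17989 genes. DESeq2 and limma-voom also called 0 members, with 0.954% of genes called higher and 0.734% lower in hsl2 by DESeq2 and 0% called by limma-voom. At an unadjusted p under 0.05 with edgeR, 3 of the 8 were higher in hsl2 and 1 lower, against 7.53% and 6.01% of all genes tested. FLA12, higher, and FLA10, lower, lay at that cutoff. Their unadjusted p with limma-voom was above it, at 0.053 and 0.0544. In 4 of the 8 every hsl2 library lay above every wild type library, as in 11.3% of genes, and in 0 every one lay below, as in 9.44%. The median log2 fold change of the 8 was 0.22, with 5 values above 0 and 3 below, beside 0.01 over all genes tested. The members and the gene lists below were chosen with earlier results of these data known, so such counts and medians are descriptive only. Adjusted p-values of the members ran from 0.354 to 0.900. Hence the values below describe these libraries and establish no difference between the genotypes.

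Among the members with a pair of fasciclin domains, FLA2 and FLA10 leaned in opposite directions. FLA2 was at 284.0, 303.4 and 254.8 CPM in hsl2 1, 2 and 3, against 207.6, 233.9 and 236.8 CPM in wild type 1, 2 and 3. All hsl2 libraries lay above all wild type libraries, with the nearest ones, hsl2 3 and wild type 3, close together. The log2 fold change was 0.31 (standard error 0.13, unadjusted p = 0.0391, adjusted p = 0.354, edgeR). FLA10 was at 19.8, 28.4 and 31.1 CPM in hsl2, against 39.7, 42.3 and 27.4 CPM in wild type. Wild type 1 and 2 were the highest libraries, while wild type 3 lay below hsl2 2 and 3. Its log2 fold change of -0.46 (standard error 0.21, unadjusted p just under the threshold of 0.05, adjusted p = 0.369, edgeR) was the most negative among the 8 tested members. The root cap marker sum given above was likewise highest in wild type 1 and 2, with wild type 3 nearer to hsl2. Within that sum RCPG had the most negative log2 fold change, and the SMB, BRN1 and FEZ libraries overlapped between genotypes. The part of root cap cells in the FLA10 values was not tested.

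FLA8 and FLA1 differed between libraries of hsl2 more than between genotypes. FLA8 was at 58.4, 114.4 and 121.3 CPM in hsl2 1, 2 and 3, against 102.3, 101.3 and 106.9 CPM in wild type. It was the steadiest member in wild type, with a coefficient of variation of 2.90%, and reached 35.2% in hsl2. The hsl2 1 library was the lowest of the 6, and hsl2 2 and 3 were the highest. FLA1, which is known from shoot regeneration in culture, was at 48.1, 68.8 and 81.5 CPM in hsl2, against 76.2, 69.4 and 64.8 CPM in wild type, and again hsl2 1 was the lowest. Both had a log2 fold change of -0.08, with 95% intervals of -0.60 to 0.44 for FLA8 and -0.50 to 0.33 for FLA1 (adjusted p = 0.900 and 0.857, edgeR). Without hsl2 1, the library with the highest green tissue marker sum, the direction turned in both. The log2 fold changes were then 0.16 for FLA8 and 0.07 for FLA1 (adjusted p = 0.493 and 0.827, edgeR).

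**Figure D2:**
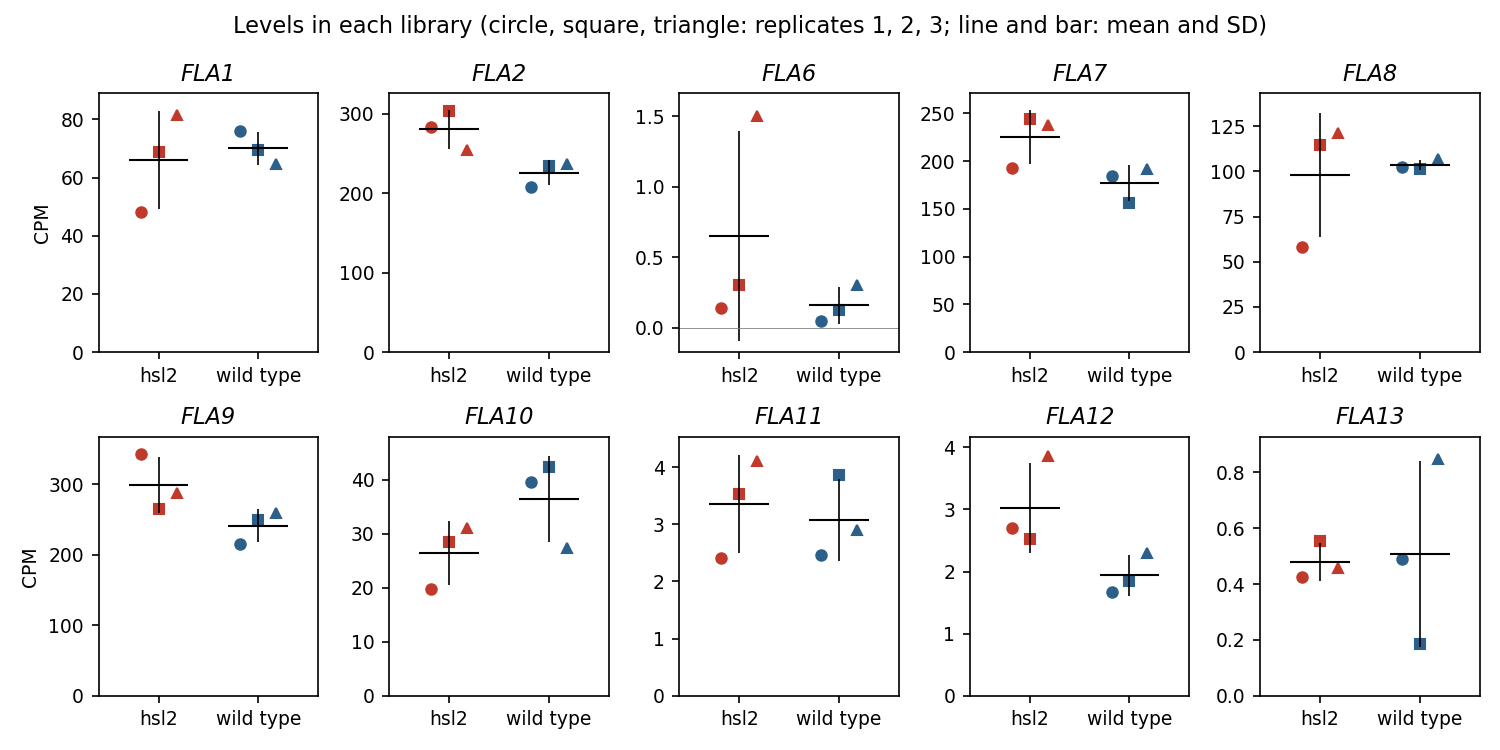
CPM of the 10 genes in each library, hsl2 left (red) and wild type right (blue), with circles, squares and triangles for replicates 1, 2 and 3 and black lines for the mean and SD. FLA2, FLA7, FLA9 and FLA12 have all hsl2 libraries above all wild type libraries, FLA8 and FLA1 have 1 low hsl2 library, and wild type 3 of FLA10 lies with hsl2.

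Of the members with a single fasciclin domain, FLA9 and FLA7 are the abundant ones. FLA9 was at 343.5, 265.1 and 288.5 CPM in hsl2 1, 2 and 3, against 215.9, 249.5 and 259.4 CPM in wild type 1, 2 and 3. The groups did not overlap, yet hsl2 2 lay close above wild type 3, and here hsl2 1 was the highest library. The log2 fold change was 0.31 (standard error 0.15, unadjusted p = 0.0610, adjusted p = 0.385, edgeR), and it was 0.17 without hsl2 1 (adjusted p = 0.535). FLA7 was at 192.7, 244.3 and 237.6 CPM in hsl2, against 184.1, 155.8 and 192.0 CPM in wild type. In this gene hsl2 1 was nearly level with wild type 3. Its log2 fold change was 0.34 (standard error 0.15, unadjusted p = 0.0410, adjusted p = 0.357, edgeR), and 0.42 without hsl2 1 (adjusted p = 0.218). The 6 genes of this class summed to 541.9, 516.4 and 536.0 CPM in hsl2, against 404.6, 411.3 and 457.8 CPM in wild type, almost all of it from FLA9 and FLA7. The 4 genes with a pair of domains summed to 410.3, 515.1 and 488.6 CPM in hsl2, against 425.6, 446.9 and 435.9 CPM in wild type, and here the genotypes overlapped.

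FLA12 and FLA11, the relatives known from secondary walls, were low and rested on 30 to 70 counts per library. FLA12 was at 2.70, 2.53 and 3.86 CPM in hsl2 1, 2 and 3, against 1.67, 1.84 and 2.30 CPM in wild type 1, 2 and 3. The groups were separate, with hsl2 3 on top. Its log2 fold change of 0.64 was the highest of the 8 tested members, at a standard error of 0.29 (unadjusted p = 0.0495, adjusted p = 0.369, edgeR). FLA11 was at 2.42, 3.54 and 4.12 CPM in hsl2, against 2.46, 3.87 and 2.91 CPM in wild type, with the groups overlapping. Its log2 fold change was 0.13, with a 95% interval of -0.50 to 0.77 (adjusted p = 0.853, edgeR). The xylem markers VND6, VND7, MYB46, XCP1 and XCP2 summed to 10.2, 20.9 and 23.9 CPM in hsl2, against 6.44, 8.54 and 14.6 CPM in wild type, most of it from the vessel proteases XCP1 and XCP2, and no marker was at 0 in all libraries. Like FLA12 and FLA11 the sum was highest in hsl2 3. The part of xylem cells in the FLA12 values was not tested.

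FLA6 and FLA13 gave too few reads for a test. FLA6 had 2, 6 and 23 counts in hsl2 1, 2 and 3, against 1, 2 and 5 counts in wild type 1, 2 and 3. Most of its counts came from hsl2 3, the library in which the root hair and xylem markers also summed highest. FLA13 had 6, 11 and 7 counts in hsl2, against 10, 3 and 14 counts in wild type, and the groups overlapped. With no filter on low counts, FLA6 reached a log2 fold change of 2.01 (standard error 0.88, unadjusted p = 0.0358, adjusted p = 0.371, edgeR), a value carried by hsl2 3.

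**Figure D3:**
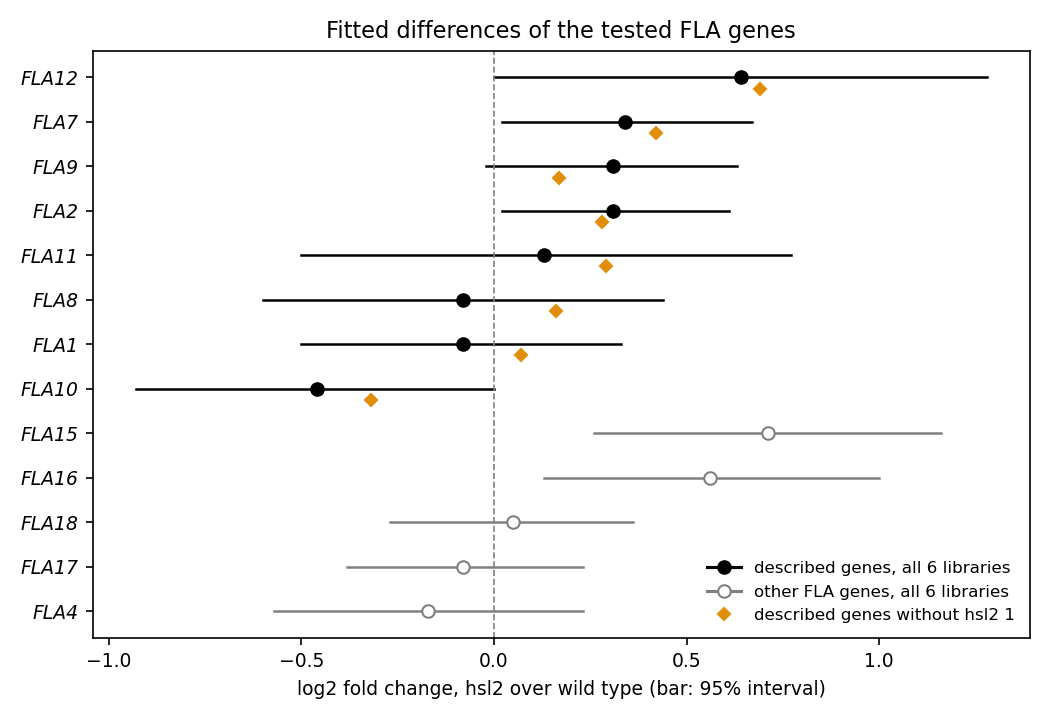
Log2 fold changes of hsl2 over wild type from edgeR for the 8 tested members (filled) and 5 other tested FLA genes (open), with 95% intervals, and the members' values without hsl2 1 (diamonds). FLA12, FLA7, FLA9 and FLA2 lie at 0.31 or above, FLA10 at -0.46, and FLA8 and FLA1 pass from below 0 to above it when hsl2 1 is left out.

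**Figure D4:**
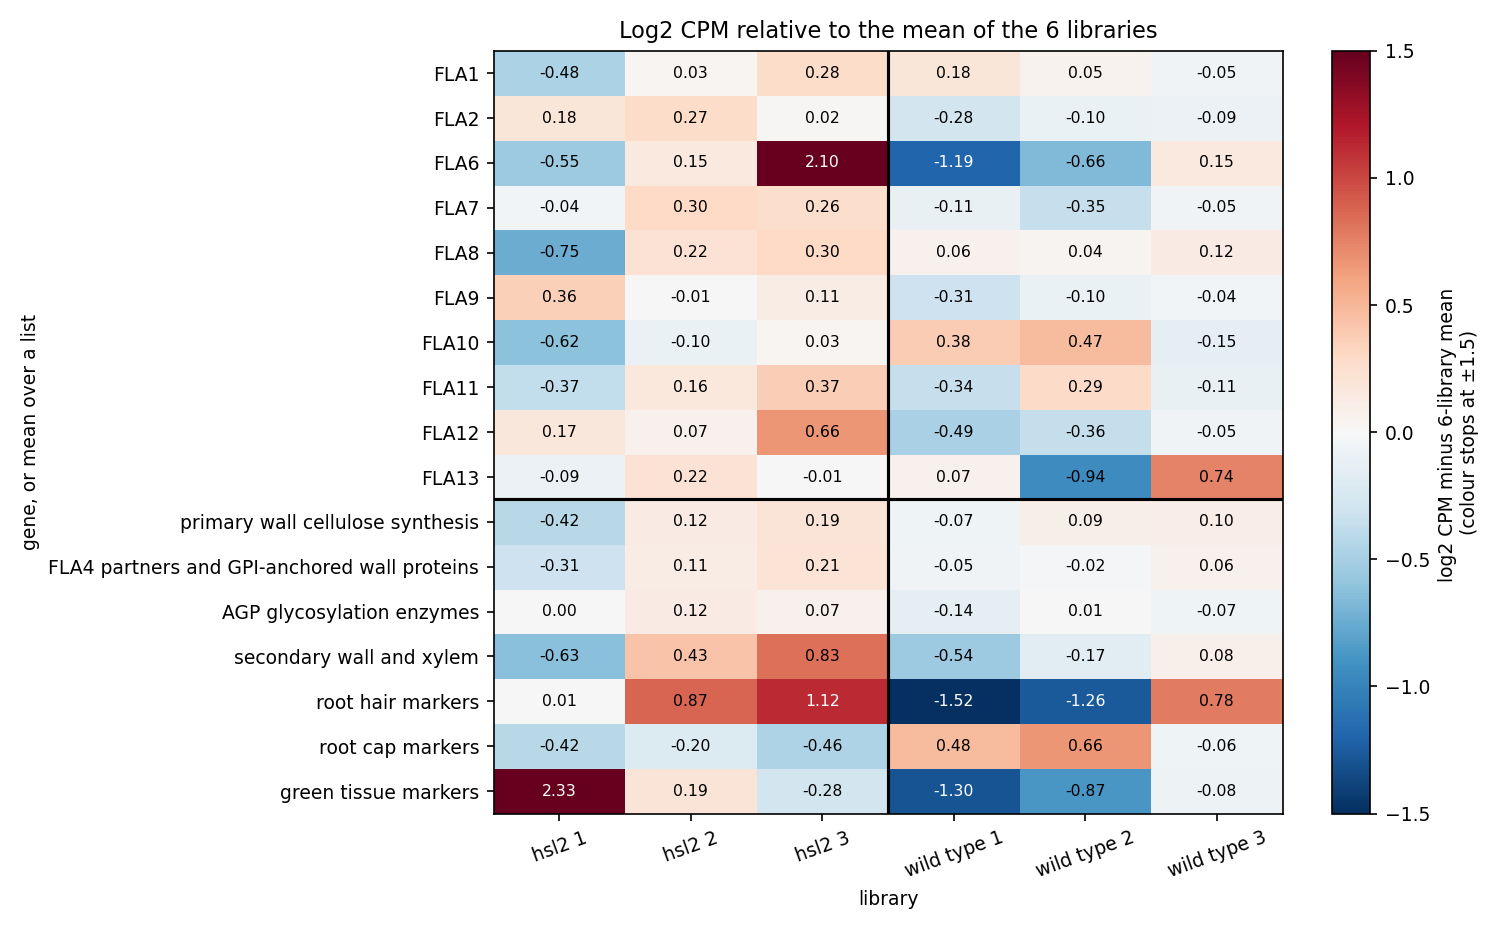
Log2 CPM minus the mean of the 6 libraries, for each member and as a mean over the tested genes of 7 lists, in hsl2 1 to 3 (left) and wild type 1 to 3 (right). FLA1 (-0.48), FLA8 (-0.75) and FLA10 (-0.62) are low in hsl2 1, where primary wall cellulose synthesis is also at -0.42, and FLA10 is highest in wild type 1 and 2 (0.38 and 0.47), as are the root cap markers (0.48 and 0.66).

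Elsewhere in the family 5 of the other 11 FLA genes were tested and 0 passed with edgeR, DESeq2 or limma-voom. FLA15 and FLA16, longer proteins known to lack a GPI anchor, had higher values in hsl2 with an unadjusted p under 0.05, 2 of the 5 tested against 7.53% of all genes. FLA15 was at 8.67, 6.97 and 6.93 CPM in hsl2, against 3.83, 5.04 and 4.91 CPM in wild type, with no overlap and a log2 fold change of 0.71 (standard error 0.20, adjusted p = 0.244, edgeR). FLA16 was at 13.5, 18.8 and 16.5 CPM in hsl2, against 9.19, 10.3 and 13.6 CPM in wild type, where wild type 3 lay just above hsl2 1 (log2 fold change 0.56, standard error 0.19, adjusted p = 0.310, edgeR). FLA17 and FLA18 were near 70 CPM in both genotypes, with log2 fold changes of -0.08 and 0.05. FLA4 was at 10.3, 12.8 and 14.8 CPM in hsl2, against 14.9, 15.7 and 12.2 CPM in wild type, with a log2 fold change of -0.17 and a 95% interval of -0.57 to 0.23 (adjusted p = 0.671, edgeR). Leaving out 1 library moved it between -0.08 without hsl2 1 and -0.30 without hsl2 3, with -0.10 without wild type 2 and -0.27 without wild type 3. FLA3, a pollen gene, and FLA14 were without a count in any library, so that 3 counts, or 0.147 to 0.199 CPM, bound their level per library, for counting error only. FLA5, FLA19, FLA20 and FLA21 had at most 11 counts in a library.

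Of the 15 genes listed for enzymes of proline hydroxylation and arabinogalactan synthesis 14 were tested. Of these, 9 had a log2 fold change above 0 and 5 below, with a median of 0.09 and 0 past the threshold with edgeR. FUT4, a fucosyltransferase of arabinogalactan, was at 19.9, 19.1 and 19.4 CPM in hsl2, against 8.21, 12.5 and 12.4 CPM in wild type. The hsl2 libraries were almost level and all above wild type, with a log2 fold change of 0.82 (standard error 0.18). It missed the threshold in edgeR (adjusted p = 0.173) and passed it in DESeq2 (adjusted p = 0.0130). This was the 1 call of DESeq2 among the 14, where DESeq2 called 0.954% of all genes higher and 0.734% lower. The prolyl hydroxylase genes P4H2 and P4H5, whose enzymes hydroxylate proline residues, were also separate between genotypes. Which proteins these enzymes act on in the root tip was not tested. P4H2 was at 136.0, 122.0 and 132.8 CPM in hsl2, against 88.1, 79.5 and 104.9 CPM in wild type, and P4H5 at 218.6, 188.9 and 169.0 CPM in hsl2, against 126.7, 154.8 and 153.9 CPM in wild type (log2 fold changes 0.52 and 0.41, adjusted p = 0.229 and 0.322, edgeR). At an unadjusted p under 0.05, 4 of the 14 were higher and 0 lower, against 7.53% and 6.01% of all genes. Every hsl2 library lay above every wild type library in 4 of the 14, as in 11.3% of all genes. In 0 every one lay below, as in 9.44%.

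A list of FLA4 partners and GPI-anchored wall proteins and a list of cellulose synthesis genes had their lowest sums in hsl2 1. FLA1 and FLA8 were also lowest there, though FEI1 and SHV3 were not. The first list held the FLA4 partners FEI1 and FEI2 and the GPI-anchored COB, SHV3 and SVL1. These 5 genes had a median log2 fold change of 0.06, with 4 above 0 and 1 below. Of them 0 passed the threshold with edgeR or had an unadjusted p under 0.05. COB, a GPI-anchored protein that orients cellulose, was at 181.9, 286.2 and 272.4 CPM in hsl2, against 226.2, 224.1 and 257.3 CPM in wild type. SVL1, a GPI-anchored phosphodiesterase-like protein, was at 65.1, 93.1 and 101.1 CPM in hsl2, against 119.0, 102.3 and 108.9 CPM in wild type, with all hsl2 libraries below (log2 fold change -0.35, adjusted p = 0.402, edgeR), and its relative SHV3 had 0.30 (adjusted p = 0.455, edgeR). SVL1 was at -0.21 without hsl2 1, and SHV3 at 0.16 without hsl2 3. Primary wall cellulose synthesis had 7 of 8 genes tested, with a median of -0.01, 3 above 0 and 4 below, and 0 past the threshold or at an unadjusted p under 0.05. Its summed level was 1203.2, 1760.9 and 1840.2 CPM in hsl2, against 1545.3, 1729.4 and 1767.0 CPM in wild type. The catalytic subunit gene CESA1 was at 248.6 CPM in hsl2 1 against 386.0 to 429.6 CPM elsewhere, and CSI1, which ties the synthase complex to microtubules, at 107.7 CPM in hsl2 1 against 215.9 to 264.9 CPM elsewhere. CESA5 had a log2 fold change of 0.10 (adjusted p = 0.818, edgeR). Why hsl2 1 stood low for these genes, FLA1 and FLA8 was not tested.

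Secondary wall and xylem genes numbered 15, of which 7 were tested. Their log2 fold changes had a median of 0.78, 5 above 0 and 2 below, and 0 passed the threshold with edgeR or DESeq2. DESeq2 gave no adjusted p for CESA8 and VND7. At an unadjusted p under 0.05, 1 was higher and 0 lower, against 7.53% and 6.01% of all genes. Of those tested, VND7, XCP1 and XCP2 are also in the xylem marker sum given above. XCP1 was at 7.25, 12.0 and 13.1 CPM in hsl2, against 3.88, 5.16 and 7.52 CPM in wild type, with hsl2 1 just below wild type 3 (log2 fold change 0.97, standard error 0.28, adjusted p = 0.255, edgeR). XCP2 and CESA8, a secondary wall cellulose synthase below 2 CPM, gave 0.86 and 1.39 on the log2 scale, and their libraries overlapped (adjusted p = 0.478 and 0.404, edgeR). Without hsl2 3 they were 0.50 and 0.79, and XCP2 was 0.53 without wild type 1 and 1.56 without wild type 3, with no call.

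A fit without the hsl2 1 and wild type 3 libraries, chosen once the values were known, called 2 members with edgeR. FLA7 was higher in hsl2, with a log2 fold change of 0.50 (adjusted p = 0.0245), and FLA10 lower, with -0.46 (adjusted p = 0.0391). Leaving out wild type 3, the wild type library nearest to hsl2 in its root hair and root cap markers, favours a difference, and the same fit called 1311 of 18214 genes, 4.48% of the genes as higher and 2.72% as lower in hsl2. FLA2, FLA9 and FLA12 had 0.34, 0.25 and 0.85 there and did not pass (adjusted p = 0.113, 0.193 and 0.147).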

How the data were processed

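The authors deposited 1 table of unnormalized read counts per sample. Trimmomatic 0.33, STAR 2.5.1b and featureCounts are named in the submitters' processing notes, for stranded TruSeq libraries per the labels' protocols. Genome build, annotation and strand setting are not given, so no coordinates or sequences are printed.

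From these counts, hsl2 was compared with wild type with edgeR 4.0.16 (R 4.3.3) on the 6 libraries: filterByExpr, TMM and a quasi-likelihood F-test of genotype (4 residual degrees of freedom), with Benjamini-Hochberg adjustment over the 17989 genes tested. Log2 fold changes set hsl2 over wild type, and their standard errors come from F. Alternatives were DESeq2 1.42.0, limma-voom (limma 3.58.1), RLE and upper-quartile scaling, no filter, a minimum of 1 CPM in 3 libraries, each library left out, and the replicate number as a block. Calls of the 3 tools were tested on simulated data. There 24 of 189 calls were false with DESeq2, 12 of 172 with edgeR and 11 of 169 with limma-voom. With edgeR 64% of 2-fold and 96% of 4-fold changes were recovered, and smaller changes were not simulated. Genes were drawn independently, without deviations shared by many genes of a library such as hsl2 1, so these rates need not hold here. Library totals of 15051468 to 20468890 set the floor of 3 counts at 0.147 to 0.199 CPM. No libraries were duplicates, the chi-square per degree of freedom being 6.17 or more for all pairs. Exon lengths, overlaps, shared 50-base stretches and translated proteins came from the TAIR10.1 annotation of RefSeq, with identities from global alignment in Biopython 1.88. Named were all members, the other FLA genes and HSL2. Also named were the 3 genes of lowest p in each of 4 pathway lists, none of which held a gene called by edgeR. The cell type markers were given by sums, and some also singly. Members and lists were chosen with earlier results of these data known.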

Additional observations from a re-analysis of the deposited data

How the results depend on the processing

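The count of members past the threshold was 0 with every alternative named in the methods. It was 2 without hsl2 1 and wild type 3 together, an alternative added after the data were seen. Calls over all genes were also 0 with RLE and upper-quartile scaling, the 1 CPM minimum, limma-voom, and without hsl2 1 or hsl2 2. They were 1, 1 and 3 without hsl2 3, wild type 1 and wild type 2. In such fits a count of 0 members says little about the members. The median log2 fold change of the tested members, 0.22, ranged from 0.10 to 0.29 when each library was left out in turn, where the count of members stayed at 0. With the replicate number as a block the median was 0.21 and 0 members passed, while calls over all genes numbered 52 against 0. Deviations from the group means correlated at 0.138, 0.065 and 0.020 for replicates 1, 2 and 3, so the numbers were not taken to pair the samples, although every library except wild type 3 correlated best with its own number, a hint from the data and not the design. With no filter 110 genes were called, and without wild type 3 alone 55, none of them a member. Over the libraries left out in turn, log2 fold changes ran from -0.26 to 0.07 for FLA1, -0.26 to 0.16 for FLA8, -0.03 to 0.33 for FLA11, -0.15 to 0.00 for FLA17, -0.05 to 0.09 for FLA18 and -0.29 to 0.03 for CESA1. Among the other tested members the ranges were 0.24 to 0.38 for FLA2, 0.26 to 0.42 for FLA7 and 0.17 to 0.39 for FLA9. FLA10 ran from -0.63 to -0.32 and FLA12 from 0.43 to 0.78. Their unadjusted p rose to 0.17 for FLA10 without wild type 2 and 0.221 for FLA12 without hsl2 3 (edgeR). Directions turned, with no gene past the threshold, without hsl2 1 for FLA1 (0.07), FLA8 (0.16), FLA17 (0.00) and CESA1 (0.03). They also turned without hsl2 3 for FLA11 (-0.03), COB (-0.01) and CESA5 (-0.01), without hsl2 2 for FLA18 (-0.05) and COB (-0.05), and without wild type 1 for FLA11 (-0.02) and FLA18 (-0.05). Without hsl2 1 and wild type 3 together FLA1 (0.04), FLA8 (0.21), FLA17 (0.05) and CESA1 (0.07) turned; the cause was not tested. That choice also brought FLA16, P4H2, FUT4, SHV3, XCP1, XCP2 and CESA8 past the threshold, and DESeq2 brought FUT4. Depth limits FLA6, FLA13, FLA11 and FLA12, which had at most 70 counts in a library.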
